A study of Mus musculus with 2 samples.

Results

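The genes described here are 10 genes of MHC antigen presentation, chosen by name from the 31784 gene rows of a pituitary microarray study. They were H2-Aa, H2-Ab1, H2-Eb1, Cd74, H2-DMa, H2-DMb1 and Ciita of the class II pathway, and H2-K1, B2m and Tap1 of the class I pathway. All 10 had a row under their own symbol. RNA of Brdt-/- mice was set against RNA of wild-type mice on 2 two-colour Agilent arrays, with 2 pools per genotype and 3 mice per pool. The Brdt-/- mice carried the Brdt tm1a (EUCOMM) Wtsi allele in every tissue, a knockout-first insertion whose lacZ trapping cassette and floxed neo cassette sit in an intron, and no Cre is named in the labels. Both genotypes were on the C57BL/6 background and 8 weeks old, the tissue was pituitary, and a sex (male) is given for the wild-type channel only.

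Class II molecules are pairs of an alpha and a beta chain that show peptides from endocytosed proteins to CD4+ T cells. They are made mainly by dendritic cells, B cells and macrophages, and the transactivator CIITA is needed for their transcription. Class I molecules pair a heavy chain with beta-2 microglobulin, occur on nearly all nucleated cells and show peptides of the cell's own proteins to CD8+ T cells. Interferon-gamma raises both pathways. C57BL/6 mice carry the H2-b haplotype. In the pituitary, class II molecules are known from resident macrophages and dendritic cells.

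Promoters of 7 of the 10 genes were in the RefSeq table (GRCm38.p6), and H2-Ab1, Cd74 and Ciita were not. The stretches below show where such letters lie in the class II genes H2-Aa, H2-Eb1 and H2-DMb1 and in the class I genes B2m and Tap1. Of these letters the class II gene H2-DMa, which is not printed, held CCAAT only. Each ends at the base before an annotated transcription start, 110 bases long, except the last, which is the whole interval of 225 bases between the starts of Psmb9 and Tap1, genes that are transcribed away from each other. The lines lie at chr17:34287824-34287933 (minus strand), chr17:34305757-34305866 (plus), chr17:34153081-34153190 (plus), chr2:122147577-122147686 (plus) and chr17:34187331-34187555 (plus, in the direction of Tap1). Capitals mark CCAAT or its extension TGATTGG, the letters TGACG, and AACNGAT from the core of the X box, each on either strand.
H2-Aa: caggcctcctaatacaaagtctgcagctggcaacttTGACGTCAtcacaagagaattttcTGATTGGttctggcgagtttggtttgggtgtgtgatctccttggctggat
H2-Eb1: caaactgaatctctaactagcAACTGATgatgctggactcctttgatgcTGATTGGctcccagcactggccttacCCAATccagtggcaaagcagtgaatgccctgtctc
H2-DMb1: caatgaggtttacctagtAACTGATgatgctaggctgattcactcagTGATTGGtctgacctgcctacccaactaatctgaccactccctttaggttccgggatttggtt
B2m: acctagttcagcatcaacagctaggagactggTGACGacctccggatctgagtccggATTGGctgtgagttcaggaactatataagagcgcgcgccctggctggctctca
Psmb9 to Tap1: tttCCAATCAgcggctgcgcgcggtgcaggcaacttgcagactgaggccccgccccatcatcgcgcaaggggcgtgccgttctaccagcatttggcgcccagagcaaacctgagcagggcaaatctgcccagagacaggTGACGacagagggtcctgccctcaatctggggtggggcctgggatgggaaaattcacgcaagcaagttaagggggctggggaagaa

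Class II promoters are known for an X box, bound by the RFX complex and by CREB family factors, and a Y box, an inverted CCAAT bound by NF-Y, and CIITA docks on these factors. The letters TGATTGG contain the inverted CCAAT and were searched on either strand of 300-base windows (250 before to 50 after the start). They were in 5 of the 7 genes, against 7.82% of all 32851 windows, and a gene counted if any of its windows held them. They read TGATTGG in H2-Aa, H2-Eb1 and H2-DMb1. In H2-K1 and Tap1 they read CCAATCA, so that the CCAAT there was not inverted. These began at 8 or -6 in H2-K1, depending on the annotated start, and at -222 in Tap1. The X box core AACNGAT was in 2 of the 7, H2-Eb1 and H2-DMb1, against 6.94% of windows. Its first base lay at -89 in H2-Eb1 and -92 in H2-DMb1, counted from the start, and TGATTGG followed at -61 and -63. In H2-Aa TGATTGG began at -50. The TGACG letters were in H2-Aa, B2m, H2-K1 and Tap1, against 20.8% of windows, and in H2-Aa they overlap their own reverse. CCAAT itself was in all 7, and in 37.4% of all windows. These letters were written down after the sequences had been seen, and a match is no evidence of binding.

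Values are log2 ratios of Brdt-/- over wild type, array 1 before array 2. That direction was assumed and is not settled. The dyes were exchanged between the arrays, no source used here says which dye stands on top, and the deposited sign of array 2 was turned because all 10 E1A spike-in rows had the same deposited sign on both arrays. Turning it takes for granted that each spike-in mixture was tied to a dye, and that Cy5 stands over Cy3 in both columns. If Cy3 stood on top, every direction would invert. Array 1 does not depend on the turn of array 2. Left as deposited, every array 2 value given here has the opposite sign. Means and counts under that sign are given beside the main ones for the 10 genes. For the lists, counts under that sign are given for most and medians for some. The targeted gene, Brdt, had ratios of -0.30 and -0.43 (mean -0.36 ± 0.10, SD, n = 2, limma's adjusted p = 0.999995), or at a mean of 0.067 with array 2 as deposited. Whether its probe lies before or behind the cassette is unknown here, so this value checks nothing about the labels. All gene rows together had a median of -0.030 on array 1 and of 0.034 on array 2. The arrays correlated at -0.26 across gene rows, which are not independent, and at 0.26 with array 2 as deposited. With the turn the arrays thus ran opposite to each other across gene rows, and the cause was not tested. Only ratios were used here, so no level of a transcript can be given and the tissue could not be checked against the levels of its hormone genes.

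Most class II genes were higher in the Brdt-/- pool on array 1, where the median size of their log2 ratios was 0.61 against 0.19 over all gene rows. On array 2 their signs were mixed and the median size was 0.22, against 0.16 over all gene rows. On array 1, 6 of the 7 class II genes and all 3 class I genes were above 0. In all, 9 of the 10 genes were higher there, where 44.9% of all gene rows were, and 1 was lower, where 55.0% were. On array 2, 5 of the 10 were higher, where 57.1% of all gene rows were, and 5 lower, where 42.8% were. No gene passed limma's test adjusted over all gene rows, where 0 of 31784 (0.0%) passed, and none of the 10 passed at an unadjusted p under 0.05, where 703 (2.21%) did. With array 2 as deposited, 0 of 31784 (0.0%) passed the adjusted test. The mean over both arrays was above 0 for all 10 genes, where it was for 51.3% of gene rows, and with array 2 as deposited for 9, where it was for 44.6%.

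**Figure D1:**
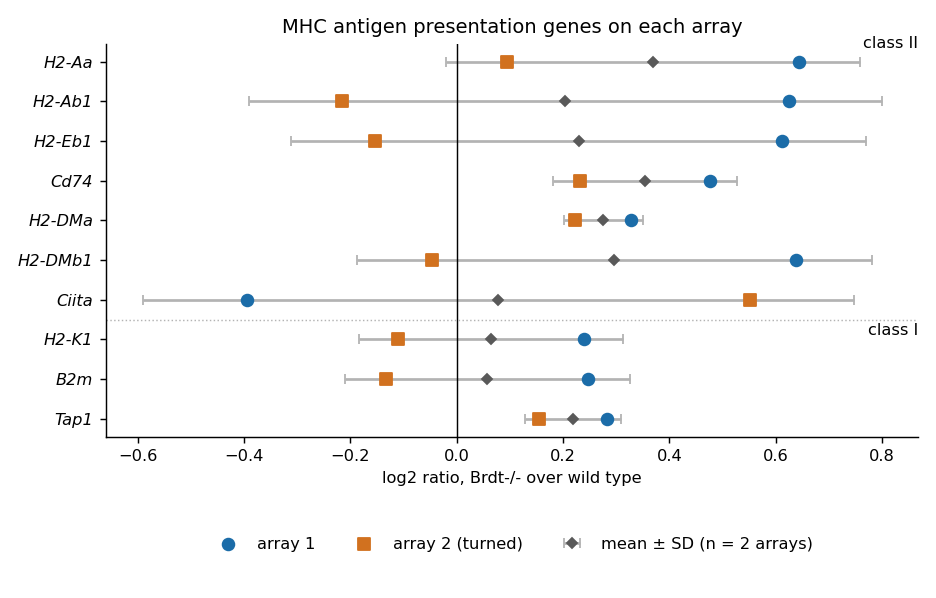
Log2 ratio of Brdt-/- over wild type (horizontal axis) for the 10 genes, with array 1 as circles, array 2 after turning as squares, and the mean ± SD of the 2 arrays as diamonds with bars. On array 1 H2-Aa, H2-Ab1, H2-Eb1 and H2-DMb1 lie together between 0.61 and 0.64, while Ciita is at -0.39, and on array 2 Ciita is the highest at 0.55.

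H2-Aa, H2-Ab1 and H2-Eb1 encode the class II chains, and on array 1 they lay within 0.032 of each other. H2-Aa, the alpha chain of I-A, was deposited as folds of 1.56 and -1.07, and so was at 0.64 and 0.094. Its mean was 0.37 ± 0.39 (1.29-fold, SD, n = 2), the highest of the 10, whereas with array 2 as deposited it was 0.28 and ranked below H2-Ab1, H2-Eb1 and H2-DMb1. H2-Ab1, the beta chain that pairs with it, was at 0.62 and -0.22, with a mean of 0.20 ± 0.59, or 0.42 as deposited. H2-Eb1, the beta chain of I-E, was at 0.61 and -0.15, with a mean of 0.23 ± 0.54, or 0.38 as deposited. H2-Aa and H2-Ab1, whose products form 1 molecule, thus had near-equal ratios on array 1 and opposite signs on array 2. The 95% interval from limma ran from -0.28 to 1.01 for H2-Aa, from -0.63 to 1.04 for H2-Ab1 and from -0.55 to 1.01 for H2-Eb1.

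Cd74 encodes the invariant chain, which fills the groove of new class II molecules and guides them to endosomes. It was at 0.48 and 0.23, higher on both arrays, with a mean of 0.35 ± 0.17 (1.28-fold, SD, n = 2). The limma interval ran from -0.15 to 0.85, with an unadjusted p of 0.113, the smallest of the 10. With array 2 as deposited the mean was 0.12.

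H2-DMa and H2-DMb1 encode the chains of H2-DM, which exchanges the invariant chain fragment for other peptides. H2-DMa was at 0.33 and 0.22, with a mean of 0.28 ± 0.074 (SD, n = 2), the smallest spread of the 10 genes. As deposited its mean was 0.053 ± 0.39, and the smallest spread was that of B2m. H2-DMb1 was at 0.64 and -0.046, with a mean of 0.30 ± 0.48, or 0.34 as deposited. The means of these partners differed by less than the spread of H2-DMb1 between arrays. The interval for H2-DMa ran from -0.19 to 0.74 and for H2-DMb1 from -0.43 to 1.02.

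On array 1 Ciita had the opposite sign to the other class II genes, which it is known to activate, and on array 2 their signs were mixed. It was deposited as -1.31 and -1.47, so that it was at -0.39 on array 1, where it was the only one of the 10 below 0, and at 0.55 on array 2, where it was the highest. Its mean was 0.078 ± 0.67 (SD, n = 2), with a limma interval from -0.83 to 0.98. With array 2 as deposited the mean was -0.47, and limma's unadjusted p was 0.0254 and its adjusted p 0.465. Ciita was the 1 gene of the 10 with an unadjusted p under 0.05 under that sign. The share of all gene rows under 0.05 with that sign is not given here, so this p cannot be read against it. On array 2, 4.27% of all gene rows were higher than Ciita, and on array 1, 88.0% were.

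H2-K1 and B2m, which encode a class I heavy chain and its light chain, had nearly the same values as each other. H2-K1 was at 0.24 and -0.11 (mean 0.064 ± 0.25, SD, n = 2) and B2m at 0.25 and -0.13 (mean 0.058 ± 0.27). Their means as deposited were 0.18 ± 0.091 and 0.19 ± 0.081. H2-D1, the other classical heavy chain gene of these mice and not among the 10, was at 0.23 and -0.070. The range over these 3 genes was 0.017 on array 1 and 0.062 on array 2. H2-K1, H2-D1 and the H2-Q genes are close in sequence, so a probe of one may take up signal of another. Tap1, a subunit of the transporter that brings peptides to class I molecules, was at 0.28 and 0.16, higher on both arrays, with a mean of 0.22 ± 0.090, or 0.064 as deposited. The limma intervals were -0.48 to 0.61 for H2-K1, -0.50 to 0.61 for B2m and -0.25 to 0.69 for Tap1.

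Of the 10 genes 4 were higher on both arrays (H2-Aa, Cd74, H2-DMa and Tap1), where 21.6% of all gene rows were. None was lower on both, where 19.5% were, and 6 had opposite signs, where 58.7% did. With array 2 as deposited, 5 different genes were higher on both arrays (H2-Ab1, H2-Eb1, H2-DMb1, H2-K1 and B2m), where 23.3% of gene rows were, and Ciita was lower on both, where 35.4% were. Past 1.5-fold, array 1 had 4 genes higher (H2-Aa, H2-Ab1, H2-Eb1 and H2-DMb1), where 7.19% of gene rows were. Array 2 had 0, where 9.19% of gene rows were past that fold in either direction. None of the 10 passed 1.5-fold in one direction on both arrays, where 0.359% of gene rows did so upwards and 0.453% downwards. The median of the class II genes was 0.61 on array 1 and 0.094 on array 2, and that of the class I genes 0.25 and -0.11. Ordered by their mean, the genes ran from H2-Aa and Cd74 through H2-DMb1, H2-DMa, H2-Eb1, Tap1, H2-Ab1 and Ciita to H2-K1 and B2m, and no neighbours in that order differed by more than their spread between arrays. The order with array 2 as deposited was H2-Ab1, H2-Eb1, H2-DMb1, H2-Aa, B2m, H2-K1, Cd74, Tap1, H2-DMa and Ciita. There only Ciita differed from its neighbour by more than both spreads, with a gap of 0.53.

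**Figure D2:**
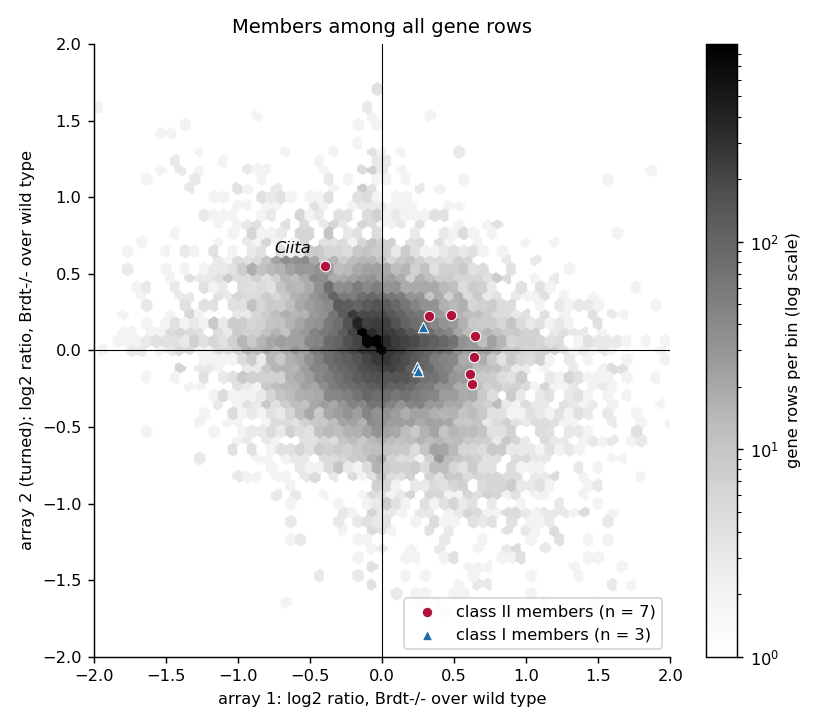
Each of the 31784 gene rows by its log2 ratio of Brdt-/- over wild type on array 1 (horizontal) and array 2 after turning (vertical), as grey bins on a log scale, with the class II genes as red circles and the class I genes as blue triangles. The axes end at 2 in size and leave out 228 rows. Apart from Ciita the class II genes stand to the right at array 1 values of 0.33 to 0.64 and between -0.22 and 0.23 on array 2.

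**Figure D3:**
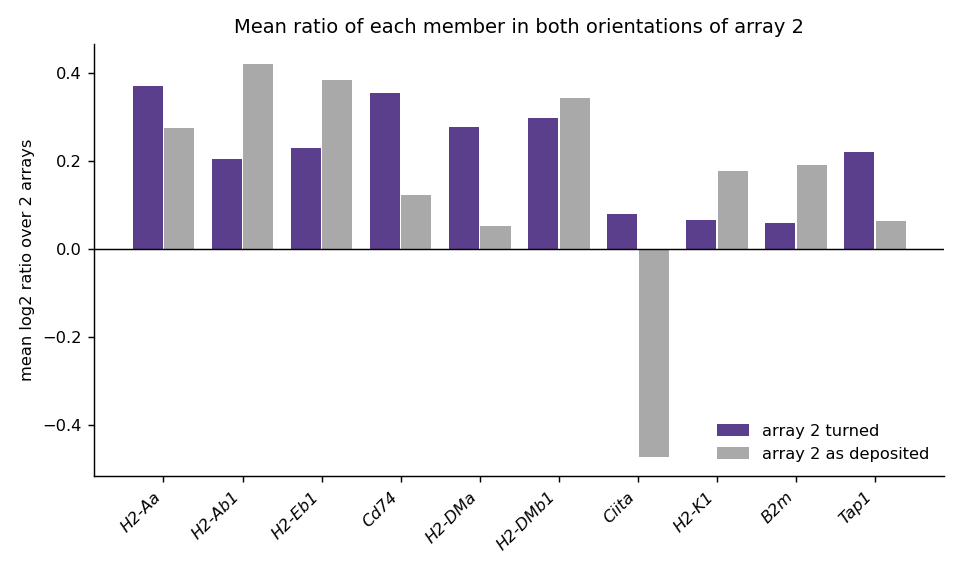
Mean log2 ratio over the 2 arrays for each of the 10 genes, with array 2 turned (purple) and as deposited (grey). Ciita is the gene whose mean differs in sign between the orientations, at 0.078 and -0.47, and the other means are above 0 in both.

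Most of the class II genes sit in 1 block of chromosome 17 together with genes of the class I pathway, and the block holds a BET family gene related to Brdt. From H2-Oa to H2-Eb2 the RefSeq annotation has 14 protein-coding genes, all of them measured. Antigen presentation genes make up 13 of them, and 7 of the 13 were higher on both arrays, where 21.6% of all gene rows were. H2-Eb2 was the 1 lower on both, where 19.5% of gene rows were. As deposited only H2-DMb1, H2-Ab1 and H2-Eb1, 3 of the 13, were above 0 on both arrays, where 23.3% of gene rows were. Below 0 on both were 2, where 35.4% of gene rows were. The other one, Brd2, lies between H2-Oa and H2-DMa and was at 0.076 and -0.056. The adjacent genes Psmb9, Tap1, Psmb8 and Tap2 were all higher on both arrays, with means of 0.25, 0.22, 0.22 and 0.21, while as deposited all 4 had opposite signs on the arrays. Psmb8 was at 0.23 and 0.21, Psmb9 at 0.39 and 0.11 and Tap2 at 0.24 and 0.18. Psmb8 and Psmb9 encode subunits of the immunoproteasome and Tap2 the partner of Tap1, and Psmb9 shares with Tap1 the interval printed above. H2-Ab1, H2-Aa and H2-Eb1 are neighbours too, and their array 2 values spread over 0.31. The block was chosen after its values were seen.

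**Figure D4:**
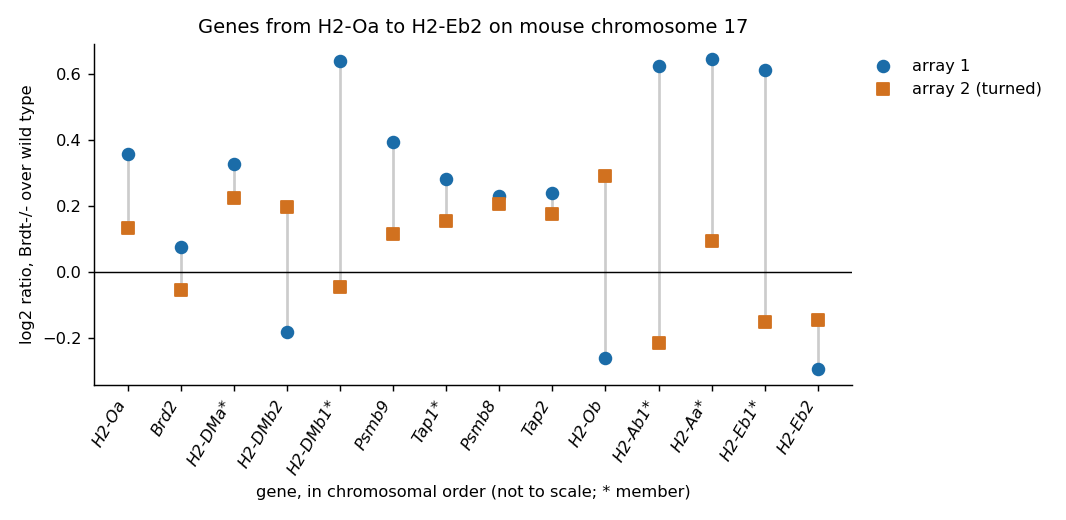
Log2 ratio of Brdt-/- over wild type on array 1 (circles) and array 2 after turning (squares) for the 14 protein-coding genes from H2-Oa to H2-Eb2, in chromosomal order and not to scale, with stars at the genes among the 10. Psmb9, Tap1, Psmb8 and Tap2 have both points above 0, whereas H2-Ab1, H2-Eb1 and H2-DMb1 have widely parted points, at 0.61 to 0.64 on array 1.

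The rest of the class II pathway was measured with 13 genes, of which 6 were higher and 2 lower on both arrays, or 1 and 4 with array 2 as deposited. Their medians were 0.016 and 0.16. Of all gene rows, 21.6% were higher and 19.5% lower on both arrays, or 23.3% and 35.4% as deposited. March1 (now Marchf1), a ubiquitin ligase that removes class II molecules from the surface, was at 0.39 and 0.26. H2-Oa, a chain of the H2-O modulator of H2-DM, was at 0.36 and 0.13, and Ifi30, the lysosomal thiol reductase of antigen processing, at 0.36 and 0.091. Rfx5, a subunit of the RFX complex that binds the X box, was at -0.13 and -0.38. H2-Ea-ps, the alpha chain gene of I-E that H2-b mice do not transcribe, was at -0.22 and 0.26. It was picked out after its values were seen. Its array 2 value was larger in size than that of each of the 10 genes but Ciita.

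Class I peptide supply and loading was measured with 13 genes, of which 5 were higher and 1 lower on both arrays, or 4 and 3 as deposited. Their medians were 0.16 and 0.060. Beyond the block genes, Erap1, a peptidase that trims class I peptides, was at 0.35 and -0.044. Of the other class I genes 19 of 23 listed were measured, and 8 were higher and 2 lower on both arrays, or 3 and 6 as deposited. Their medians were 0.15 and 0.073. Beside both of these lists, 21.6% of all gene rows were higher and 19.5% lower on both arrays, or 23.3% and 35.4% as deposited. H2-M3, which presents formylated peptides, was at 0.61 and -0.18, a pair of values close to those of H2-Ab1. H2-Q10, a secreted class I gene best known from liver, was at 0.24 and 0.23, H2-M11 at 0.20 and 0.24 and H2-M10.1 at -0.049 and -0.66. None of these genes passed limma's adjusted test.

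The interferon-gamma pathway was measured with 15 genes. On array 1, 12 were higher, where 44.9% of all gene rows were, and on array 2, 12 were lower, where 42.8% were. Opposite signs were found for 11, where 58.7% of gene rows had them. On both arrays 2 were higher and 2 lower, where 21.6% and 19.5% of gene rows were. The medians of the pathway were 0.19 and -0.16. Irf1, a transcription factor that interferon-gamma induces, was at 0.67 and -0.20, and the induced GTPase gene Gbp2 at 0.59 and -0.24. Cxcl10, a chemokine induced by interferon, was at 0.66 and -1.47, and Iigp1, another induced GTPase, at -0.23 and -0.25. As deposited, 10 of the 15 were positive and 1 negative on both arrays, where 23.3% and 35.4% of gene rows were. Costimulatory molecules, which T cells need beside the peptide, had medians of 0.29 and -0.035 over 6 genes, with 2 higher and 1 lower on both arrays, or 3 and 0 as deposited. Cd40 was at 0.41 and 0.12 and Pdcd1lg2, an inhibitory ligand, at -0.095 and -0.63, and Cd274, another such ligand, at 0.28 and 0.062.

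Markers of cells that carry class II molecules were set beside these values. In bulk RNA a change in the number of such cells and a change in RNA per cell cannot be told apart. Macrophage markers had medians of 0.53 and 0.19, with 6 of 11 higher and 1 lower on both arrays, or 2 and 2 with array 2 as deposited. For these and the following markers, the shares of all gene rows were 21.6% higher and 19.5% lower on both arrays. As deposited they were 23.3% and 35.4%. Lyz2, the lysozyme gene of macrophages and granulocytes, was at 0.78 and 0.46, the mannose receptor gene Mrc1 at 0.79 and 0.19 and Cd14 at 0.53 and 0.23. Csf1r, the receptor gene that defines the lineage, was at -0.043 and -0.18 and was the 1 marker lower on both. Dendritic cell markers had medians of 0.15 and 0.16, with 5 of 9 higher and 1 lower on both arrays, or 0 and 3 as deposited. Clec9a of cross-presenting dendritic cells was at 0.48 on both arrays, Ccr7 at 0.57 and 0.16, Batf3 at 0.41 and 0.20 and Siglech of plasmacytoid cells at -0.16 and -0.61. Genes of all leukocytes had medians of 0.37 and 0.055, with 5 of 7 higher and 0 lower on both arrays, or 1 and 1 as deposited, led by Cd53 at 1.48 and 0.59.

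B cell markers lay the other way, with medians of -0.46 and -0.17, 0 of 7 higher and 3 lower on both arrays, or 1 and 3 as deposited. The shares of all gene rows were again 21.6% and 19.5%, or 23.3% and 35.4% as deposited. Pax5 was at -0.82 and -0.24 and Cd79a at -0.46 and -0.30. T and NK cell markers had medians of 0.14 and -0.15, with 2 of 9 higher and 3 lower on both arrays, or 3 and 1 as deposited. Cd2 was at 1.33 and -0.088. Of the T cell receptor complex, Cd3d was at 0.73 and 0.20 and Cd3e at -0.76 and -0.46. Cd3g of the same complex was, like Cd3e, lower on both arrays, with a mean of -0.58 ± 0.59 (SD, n = 2). Endothelial markers had medians of -0.017 and 0.030 over 6 genes. Neutrophil markers had medians of 3.50 and 0.45 over 9 measured of 10 listed, with 6 higher and 2 lower on both arrays, or 1 and 0 as deposited, led by S100a8 at 5.54 and 0.45. Array 1, on which the class II median was 0.61, was thus also the array with the high neutrophil median. Not every neutrophil marker was high there. Elane (-0.091 and -0.15) and Csf3r (-0.27 and -0.14) were lower on both arrays, and Cxcr2 was at 0.048 and 1.24. Red blood cell markers had medians of 0.034 and 1.16 and hormone genes 0.29 and -0.25. None of these markers passed limma's adjusted test, and their part in the values of the 10 genes was not tested. Of 137 genes on these further lists, those closest to the class II medians over both arrays included Aif1 (0.60 and 0.031) and Ccr7, at Euclidean distances of 0.065 and 0.074 on the log2 scale. With 2 arrays such likeness is weak, since 63 gene rows lay as close as Aif1 or closer and 85 as close as Ccr7 or closer.

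**Figure D5:**
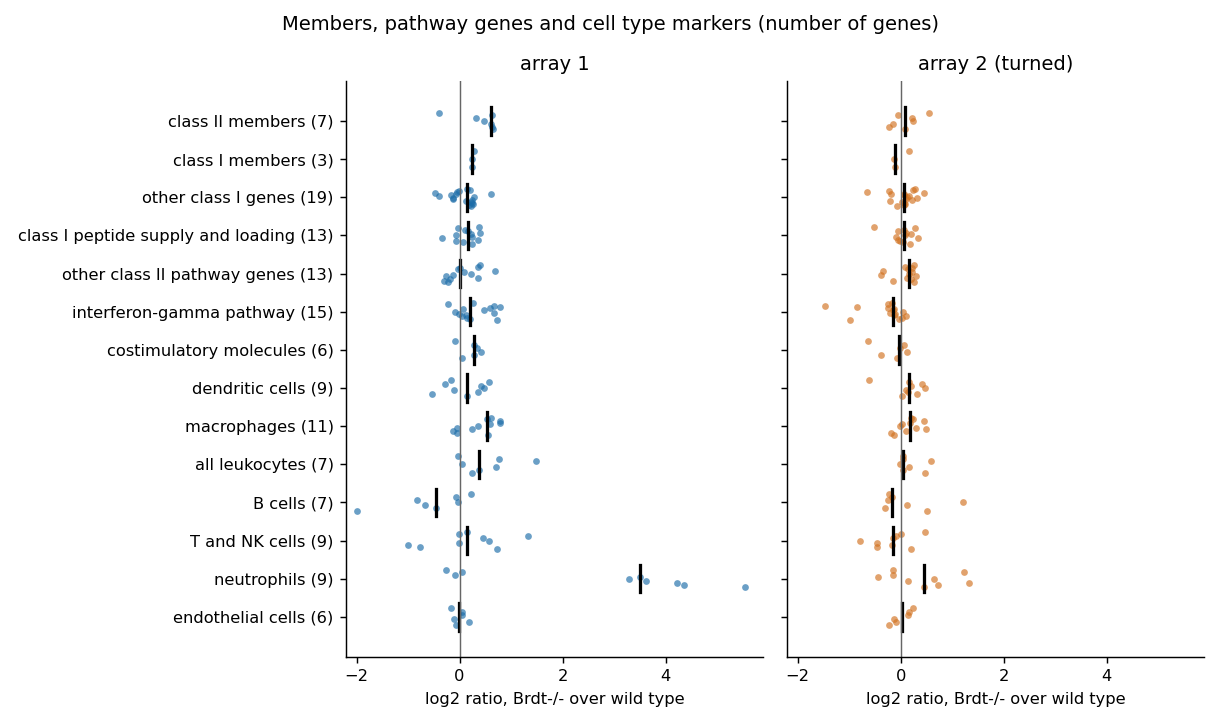
Log2 ratio of Brdt-/- over wild type of each gene (points) on array 1 (left) and array 2 after turning (right), by list, with the list median as a black line and the number of genes in brackets. Medians on array 1 are 0.61 for the class II genes, 0.53 for macrophage and 3.50 for neutrophil markers, and on array 2 they are 0.094, 0.19 and 0.45.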

How the data were processed

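Pituitary RNA of Brdt-/- and wild-type mice was compared on 2 two-colour Agilent arrays. The authors deposited signed linear folds, 1 row per gene name, each at least 1 or at most -1. Per the labels' protocols, RNA was labelled with Agilent's two-colour low-input kit. The sources used here give no background correction, normalization or probe summary. The scale was therefore read from the values, and centring and direction are unknown. Without intensities dim probes could not be set apart, and the small number of arrays limits precision.

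Of 31840 rows, 56 control rows were left out. Folds were converted to signed log2 values, and the sign of array 2 was turned. Names were matched to RefSeq (GRCm38.p6), 20794 rows by symbol and 2749 by an older symbol, and 8241 kept the deposited name. An intercept-only model was fitted to each gene row with limma 3.58.1 (R 4.3.3, eBayes), and p-values were adjusted over all gene rows by Benjamini-Hochberg, with calls below 0.05. Exact sign flips of 2 arrays cannot reach that level. The labels call the pools biological replicates, and p-values measure the spread between these 2 arrays.

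In simulated data of 31784 genes, the values of each array were dealt to genes at random. The simulated arrays were therefore close to uncorrelated, whereas the real ones correlated at -0.26. In these simulated data limma called 0 of 50 genes changed by a log2 of 1, 4 of 50 changed by 2, 42 changed by 3 and 44 changed by 4. It called 0 of 31584 unchanged genes. The genes, lists and orientation were chosen with earlier results of these data known. Named genes are the 10, up to 4 per further list by the size of the mean, and the 3 most alike, and any other gene was chosen after its values were seen. Some genes that this rule takes are not reported here. H2-L, H2-Q4, H2-T22, H2-Bl and Ly6g had no row under a name that matched. Alternatives were the sign of array 2, centring, scaling, single arrays, fold thresholds, protein-coding rows and an ordinary statistic.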

Additional observations from a re-analysis of the deposited data

How the results depend on the processing

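Centring each array on its median and scaling both arrays to the same spread left the counts of the 10 genes, the sign of each gene's mean and the adjusted calls as they were. The class II median stayed between 0.27 and 0.28 under these settings and with array 2 as deposited, and was 0.29 without Ciita, an alternative chosen after seeing the data. With array 2 as deposited, Ciita moved to -0.47 and the count lower on both arrays to 1. The list medians then were -0.061 for other class II pathway genes, 0.058 for dendritic cells, 0.23 for T and NK cells, -0.020 for endothelial cells and -0.50 for red blood cells. These follow from the turned sign itself, as do the counts as deposited given above for the lists and the chromosome 17 block, which were added after seeing the data.

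Taking 1 array alone, which asks less of a gene by construction, the count of the 10 genes that were higher ran from 5 to 9, the count lower from 1 to 5, and the count past 1.5-fold from 0 to 4. Over single arrays the medians ran from 0.094 to 0.61 for class II, -0.11 to 0.25 for class I, 0.073 to 0.15 for other class I genes, 0.060 to 0.16 for class I loading, 0.016 to 0.16 for other class II genes, 0.15 to 0.16 for dendritic cells, 0.055 to 0.37 for all leukocytes and -0.017 to 0.030 for endothelial cells. The count past the fold on both arrays was also 0 at 1.2-fold and at 2-fold. Over all gene rows limma's 0 adjusted calls became 703 at an unadjusted p and 2 with the ordinary one-sample statistic, none of them among the 10 genes. The p of the ordinary statistic was set to 0 for rows with the same value, other than 0, on both arrays. Whether the 2 calls were such rows was not tested. No paired analysis was possible because only ratios were used: each is already the difference between the 2 pools of 1 array, so a replicate block cannot be added and no unpaired fit exists to set beside this one. In the simulation limma called 0 of 50 changes of a log2 of 1, so mean differences of the sizes given for the 10 genes were not detectable by the adjusted test. It called 42 of 50 at a log2 of 3, on simulated arrays that lacked the correlation of the real ones.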
